A study of Mus musculus with 27 samples.

Results

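The retinoid and COUP nuclear receptors were followed as 10 genes of developing mouse retina: the retinoid X receptors *Rxra*, *Rxrb* and *Rxrg*, the retinoic acid receptors *Rara*, *Rarb* and *Rarg*, the retinoic acid-related orphan receptor gene *Rora*, the COUP transcription factors *Nr2f1* and *Nr2f2*, and *Nr2e1*, which encodes TLX. They were chosen by name, as candidate partners of thyroid hormone receptors and regulators of opsin genes, with earlier results of these data known, and the rule uses no measured value. All 10 were listed once each among 38168 features, and all 10 were among the 31760 features that reached 1 cpm (reads scaled to the library total) in 3 or more libraries. Whole retinas of wild-type C57BL/6J mice, untreated and kept on a light-dark cycle, were sampled in the light phase at 7 ages. There were 3 libraries at embryonic day 14 (E14), 3 at E17, 4 at postnatal day 1 (P1), 3 at P6, 4 at P15, 4 at P28 and 6 at P60. The labels give 3 retinas per library, whereas the methods describe larger pools of several animals, except that 4 of the 6 P60 libraries were each made from a single mouse. Which of the 6 these were is not given in the sources used here. Embryos and P1 neonates were of mixed sexes and later ages were males, so sex composition and age cannot be told apart across that step.

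Retinoid X receptors (RXRs) are nuclear receptors that bind DNA mostly as heterodimers, pairing with retinoic acid receptors (RARs), thyroid hormone receptors and other partners. RARs are activated by retinoic acid, a vitamin A derivative that patterns the embryonic eye. In the retina RXRγ takes part with the thyroid hormone receptor TRβ2 in restricting short-wavelength opsin, RORα activates cone opsin genes, COUP-TFs take part in the dorsal-ventral pattern of the eye, and TLX maintains progenitor cells.

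The recovered depth is that of reads counted for features, and is lower than the reads per library that the paper states. It ran from 7077781 to 11332323 reads in a library (median 7969873), so that 3 reads corresponded to about 0.3 to 0.4 cpm. These limits cover counting error only. Progenitor markers (*Sox2*, *Mki67*, *Ccnd1*) summed to 3684 to 4082 cpm up to P1, 143 to 188 cpm at P6 and 31.6 to 48.3 cpm from P15. Rod markers summed to 13.1 to 22.9 cpm in embryos and 14678 to 27244 cpm from P15, while lens markers never summed above 8.65 cpm. Retinal pigment epithelium markers summed to 2.59 to 6.24 cpm in embryos, 30.0 to 49.4 cpm at P15 and 10.5 to 36.6 cpm at P60. Among these markers, all libraries from P15 lay above all embryonic ones for *Rpe65* and *Ttr*, and overlapped them for *Best1*, *Pmel* and *Tyrp1*. The part of this tissue in the differences between mature and embryonic retina was not tested. Libraries were compared pairwise within each age, and all 42 pairs differed by more than counting error. At P60, replicates 3, 4 and 5 correlated more with the other P60 libraries than with the P28 libraries, and replicates 1, 2 and 6 correlated more with P28. By chi-square per degree of freedom over features, P60 replicates 1 and 2 differed by 3.13 from each other and by 7.63 to 19.3 from replicates 3 to 6. P60 values of *Rxrb*, *Rarg* and *Rora*, the members called at P60 against P28, are therefore given replicate by replicate. All p-values measure only the spread between these libraries.

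Binding sites of RXRs and RARs are built from repeats of a short core motif, and 3 promoter stretches with such letters are shown for members whose levels changed with age. The 250 bases before each RefSeq start (GRCm38.p6) were searched on both strands for 4 versions of the motif. Of 32851 windows of all genes, AGGTCA was present in 14%. The version AGTTCA was present in 11.8%. The version GGGTCA was present in 11.6%. The version GGTTCA was present in 8.85%. Windows of the 10 members, all matched by symbol, numbered 18. At least 1 core motif was found in 8 of the 18 windows, belonging to 7 members, against 38.6% of the windows of all genes. A direct repeat of 2 core motifs with 5 bases between them, the classical retinoic acid response element, was present in 29 of all windows (0.0883%) and, among the members, only in *Rarb*, a classical retinoic acid target gene. In the stretches printed 5′ to 3′ on the gene's own strand, capitals mark core motifs, or their reverse complement.
Rarb, chr14:16575477-16575596, minus strand: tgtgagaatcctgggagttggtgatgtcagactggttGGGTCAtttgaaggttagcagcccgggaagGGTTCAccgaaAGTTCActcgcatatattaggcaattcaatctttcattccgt
Rxrg, chr1:167618085-167618204, plus strand: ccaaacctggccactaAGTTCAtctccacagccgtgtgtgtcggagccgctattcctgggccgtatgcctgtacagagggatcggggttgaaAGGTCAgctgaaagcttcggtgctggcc
Rarg, chr15:102257653-102257772, minus strand: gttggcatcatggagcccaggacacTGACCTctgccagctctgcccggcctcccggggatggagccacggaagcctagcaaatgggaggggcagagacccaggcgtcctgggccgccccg
The direct repeat of *Rarb* lay from -53 to -37 before the start, and a further core motif lay at -83 to -78. *Rxrg* had core motifs at -164 to -159 and -88 to -83 before the second of its listed starts. Before its first start, not printed, it had 1 on the opposite strand at -145 to -140. *Rarg* had 1 on the opposite strand at -225 to -220. *Rxra* (3 core motifs), *Rara* (4), *Nr2e1* (1) and *Nr2f1* (1) were the other members with a match, and the windows of *Rxrb*, *Rora* and *Nr2f2* held none of these letters. These matches describe the letters of the windows, and binding was not measured.

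Across the 10 members, mature retina (P15, P28 and P60, 14 libraries) was compared with embryonic retina (E14 and E17, 6 libraries) by limma on log2(cpm + 1), with Benjamini-Hochberg adjustment over all features. *Rarg* and *Rora* were higher in mature retina. *Rxrg*, *Rara*, *Nr2f1*, *Nr2f2* and *Nr2e1* were lower, and *Rxra*, *Rxrb* and *Rarb* were not called. Thus 2 of 10 members were higher where 35.0% of all features were, and 5 of 10 were lower where 40.4% of all features were. With a further requirement of at least 1 on the log2 scale, 2 members were higher (14.9% of all features) and 4 were lower (16.1%), *Rara* dropping out. The median of the members was -0.21, against -0.06 for all features tested. Every mature library lay above every embryonic library for *Rarg* and *Rora*, a pattern found in 17.4% of all features, and below for *Rxrg*, *Nr2f1*, *Nr2f2* and *Nr2e1*, found in 23% of all features. Over any of the 7 ages, 9 of 10 members differed by the F test, as 83.0% of all features did, and *Rara* did not pass (adjusted p = 0.053). The F test of *Rara* passed in 7 of 36 alternatives (adjusted p down to 0.00071). These were the replicate number as a block, and leaving out P15 replicate 4, P60 replicate 1, 2, 3 or 5, or all P60 libraries.

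**Figure D1:**
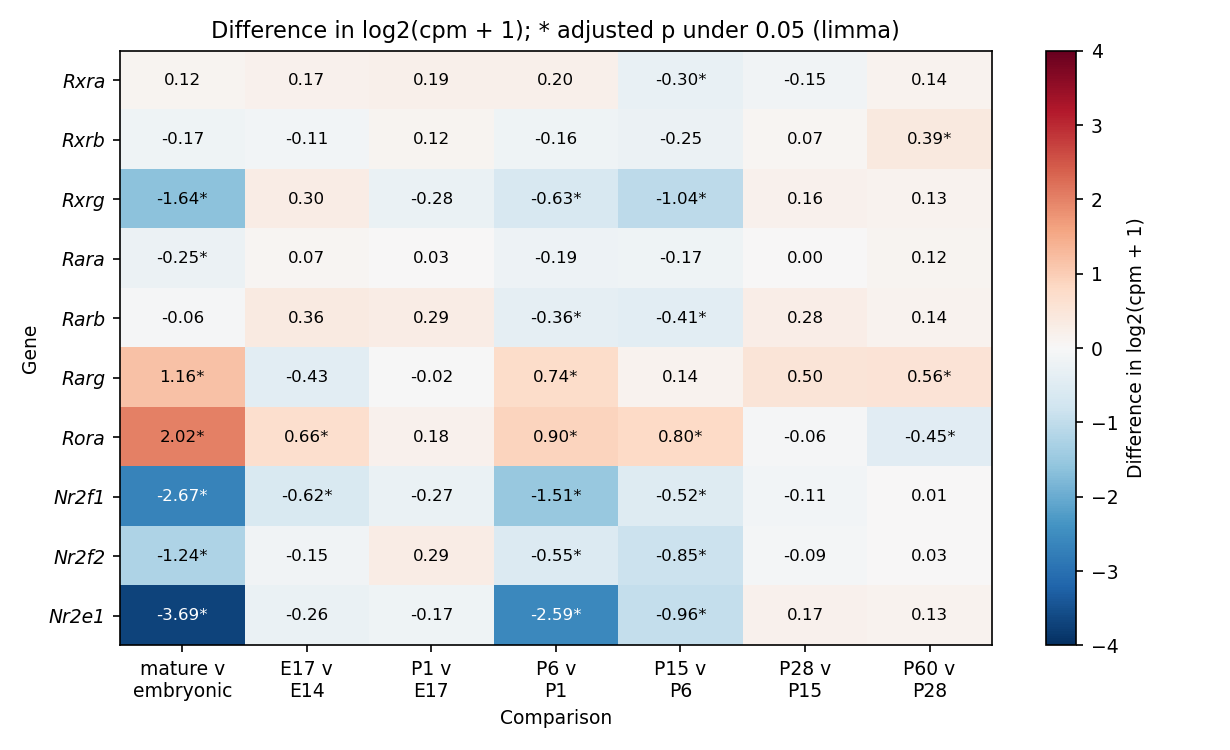
Heat map of the difference in log2(cpm + 1) for each of the 10 genes (vertical axis) in mature against embryonic retina and in each age against the age before (horizontal axis), red for higher and blue for lower, with the value written in each cell and an asterisk where the limma adjusted p was under 0.05. *Nr2e1* (-3.69) and *Nr2f1* (-2.67) hold the deepest blue cells, both in mature against embryonic retina, and *Rora* the deepest red (2.02 in mature against embryonic retina), and no cell of the P1 or P28 steps has an asterisk.

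The steps between neighbouring ages showed when the members moved. At E17 against E14, *Rora* was higher and *Nr2f1* lower, where 7.56% of all features were higher and 3.02% lower. At P1 against E17 no member was called (5.77% of all features higher, 3.43% lower), although limma gave 3 members, *Nr2f1*, *Nr2f2* and *Rarb*, an unadjusted p under 0.05, and edgeR called none and gave 2 such members, *Nr2f1* and *Nr2f2*. Fitting only E17 and P1, or leaving out the P60 libraries, gave 3 calls at this step, *Nr2f1*, *Nr2f2* and *Rora*. At P6 against P1, *Rarg* and *Rora* were higher (18.0% of all features) and 5 members, *Rxrg*, *Rarb*, *Nr2f1*, *Nr2f2* and *Nr2e1*, were lower (20.4%). At P15 against P6, *Rora* alone of the members was higher (14.4% of all features), and 6 members, *Rxra*, *Rxrg*, *Rarb*, *Nr2f1*, *Nr2f2* and *Nr2e1*, were lower (19.0%). At P28 against P15 no member was called (1.14% of all features higher, 1.58% lower), with 2 members, *Rarb* and *Rarg*, at an unadjusted p under 0.05 by limma and the same number by edgeR, which also called none. At P60 against P28, *Rxrb* and *Rarg* were higher (4.80% of all features) and *Rora* was lower (8.11%). Neighbouring steps share the libraries of the age between them and are not independent.

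*Rxra* (Gene ID 20181, chr2:27676440-27762957, plus strand), which encodes RXRα, stayed between 31.0 and 54.8 cpm. Gene positions are those of the GENCODE annotation of GRCm38. Its libraries read 36.6, 31.0 and 32.0 cpm at E14 and 38.0, 34.6 and 39.9 cpm at E17. They read 47.0, 44.2, 40.3 and 40.5 cpm at P1, and 43.7, 54.8 and 50.5 cpm at P6. The P6 mean of 49.7 ± 5.63 cpm (SD, n = 3) was the highest of the 7 ages, but the ranges of neighbouring ages in the order of means all overlapped. They read 39.3, 38.2, 36.4 and 46.3 cpm at P15 and 38.1, 38.8, 34.4 and 32.3 cpm at P28. At P60 the lowest, median and highest values were 34.5, 38.7 and 47.2 cpm. Only the step from P6 to P15 was called, a fall of 0.30 ± 0.11 (SE; log2 scale, adjusted p = 0.033). This call was lost in 8 of 37 alternatives (adjusted p up to 0.18). These were median-of-ratios scaling, edgeR with or without E14 replicate 1, and leaving out P6 replicate 2 or 3, or P15 replicate 1, 2 or 3. Counts of alternatives for a single gene, here and for the other members, leave out the minimum log2 change of 1. The mature minus embryonic difference was 0.12 (95% interval -0.02 to 0.26, adjusted p = 0.13), and it was called with median-of-ratios scaling and with edgeR (adjusted p down to 0.006).

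*Rxrb* (Gene ID 20182, chr17:34031812-34038399, plus strand), which encodes RXRβ, stayed between 16.8 and 25.3 cpm up to P28. The E14 libraries held 23.2, 25.3 and 21.5 cpm, the E17 libraries 22.5, 21.1 and 20.8 cpm and the P1 libraries 23.7, 23.4, 23.5 and 23.3 cpm. Values of 20.8, 20.1 and 21.8 cpm at P6 were followed by 17.3, 17.5, 18.0 and 16.8 cpm at P15 and 16.8, 17.7, 21.2 and 17.7 cpm at P28. At P60 the spread was the widest, with 21.0, 16.9, 30.7, 27.2, 31.9 and 21.7 cpm in replicates 1 to 6, so that replicates 3, 4 and 5 exceeded every library of the other ages and replicates 1 and 2 lay within the P28 range. P60 was higher than P28 by 0.39 ± 0.12 (SE; log2 scale, adjusted p = 0.034). The call was lost in 8 of 36 alternatives (adjusted p up to 0.25): without P28 replicate 1, 2 or 4, without P60 replicate 3, 4 or 5, with the replicate number as a block, and with only the ages compared. The mature minus embryonic difference was -0.17 (95% interval -0.36 to 0.02, adjusted p = 0.098), and it was called lower without P60 replicate 3, without P60 replicate 5 or without all P60 libraries (adjusted p down to 0.00014).

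*Rxrg* (Gene ID 20183, chr1:167598384-167639623, plus strand), which encodes the RXR known for its role in cone opsin patterning, fell after P1. The E14 libraries held 14.8, 11.6 and 18.3 cpm, the E17 libraries 19.9, 18.0 and 17.2 cpm and the P1 libraries 14.7, 16.6, 12.3 and 16.6 cpm. Levels were 9.18, 8.65 and 10.1 cpm at P6 and 3.48, 3.95, 3.77 and 4.95 cpm at P15. The P6 libraries lay below every earlier library and above every P15 library. At P28 the values were 7.33, 5.20, 5.14 and 2.14 cpm, the last resting on 17 reads, and at P60 the lowest, median and highest were 3.38, 4.76 and 8.51 cpm. The highest mature library was thus below the lowest embryonic library, and the difference was -1.64 ± 0.16 (SE; log2 scale, adjusted p = 7.2e-11). The fall from P6 to P15 was 1.04 ± 0.25 (adjusted p = 0.0014). The fall from P1 to P6 was 0.63 ± 0.25 (adjusted p = 0.042) and lost its call in 9 of 36 alternatives (adjusted p up to 0.12). These were a pseudocount of 0.1, median-of-ratios scaling, the replicate block, and leaving out P1 replicate 1, 2 or 4 or any 1 of the P6 libraries. In whole tissue, fewer cells that express a gene and less RNA of it per cell cannot be told apart.

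**Figure D2:**
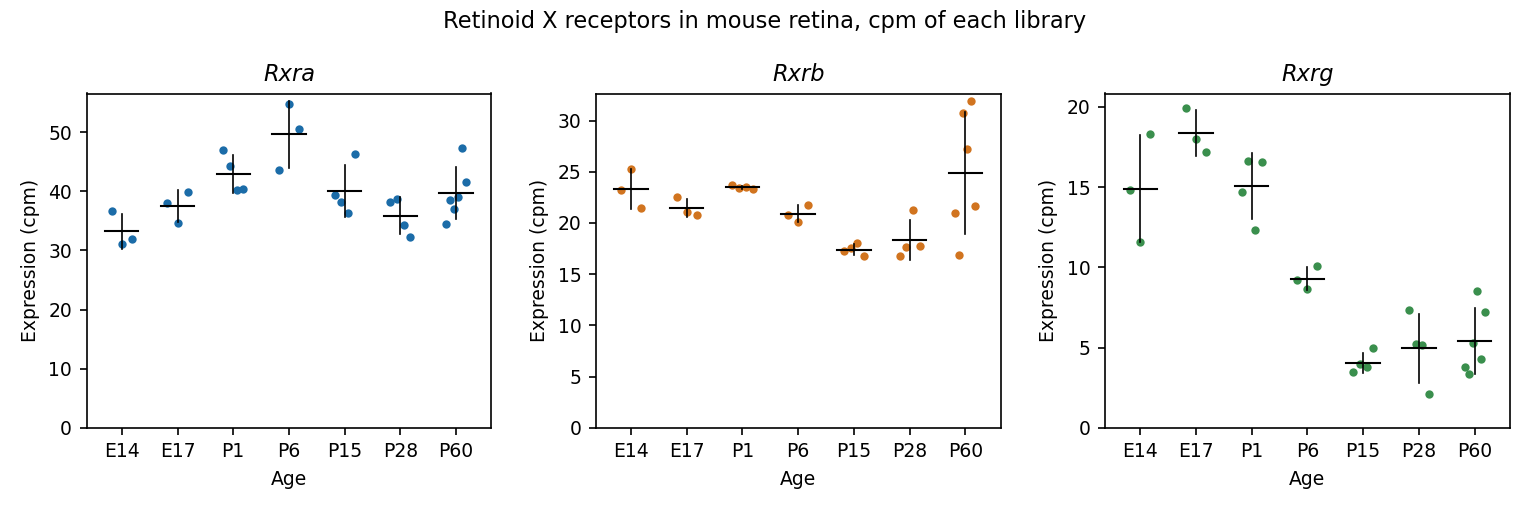
Expression of *Rxra*, *Rxrb* and *Rxrg* in cpm (vertical axes, each from 0) at the 7 ages (horizontal axes), with a point for each library, a horizontal bar for the mean and a vertical bar for ± 1 SD. *Rxrg* steps down from 17.2 to 19.9 cpm at E17 to 3.48 to 4.95 cpm at P15, *Rxra* peaks at P6 with overlapping ranges, and *Rxrb* spreads from 16.9 to 31.9 cpm at P60.

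The makeup of the RXR family shifted with the fall of *Rxrg*. Levels of different genes were compared per kilobase (kb) of annotated exon, in cpm per kb. Summed over the 3 RXR genes, the level was 18.4 ± 1.17 cpm per kb (SD, n = 3) at E14, 20.3 ± 1.16 (n = 4) at P1, 13.5 ± 0.932 (n = 4) at P15 and 15.9 ± 2.36 (n = 6) at P60. *Rxrg* made up 35.0 ± 6.02% of that sum at E14 and 39.5 ± 1.81% at E17, then 22.0 ± 1.80% at P6, 13.0 ± 1.19% at P15 and 14.7 ± 4.45% at P60. These shares rest on the division by exon length (*Rxrg* 2.297 kb, *Rxra* 5.462 kb, *Rxrb* 3.973 kb). In cpm, *Rxrg* had the lowest mean of the 3 genes at every age. At E17 it held 18.4 cpm, against 37.5 cpm for *Rxra* and 21.5 cpm for *Rxrb*. *Rxra* rose in share from 33.0 ± 2.43% at E14 to 54.4 ± 2.26% at P15. Log2 ratios between genes, here and for the other families, are differences between their log2(cpm + 1) values, which shrinks changes of genes at low cpm. The log2 ratio of *Rxrg* to *Rxra* was lower in mature than in embryonic libraries by 1.75, and that of *Rxrg* to *Rxrb* by 1.50 (two-sided exact permutation tests over 38760 arrangements, each p = 2.6e-05, the smallest possible, adjusted p = 3.6e-05 over 7 ratios). The ratio of *Rxrb* to *Rxra* differed by -0.25 (exact permutation p = 0.091, adjusted p = 0.11), and without P60 replicate 3 or without all P60 libraries it passed (-0.30 and -0.41, adjusted p = 0.033 and 0.0054).

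*Rara* (Gene ID 19401, chr11:98927818-98974942, plus strand), which encodes RARα, held a narrow range. Values were 45.8, 45.8 and 46.7 cpm at E14, 48.4, 44.9 and 52.2 cpm at E17, and 48.0, 56.9, 46.0 and 47.1 cpm at P1. They were 47.3, 43.9 and 38.6 cpm at P6, 34.9, 38.7, 35.2 and 45.2 cpm at P15 and 40.9, 39.2, 34.0 and 40.0 cpm at P28. P60 ran from 33.0 to 56.0 cpm with a median of 42.1 cpm, and replicate 3 held the highest value there. Mature libraries overlapped the embryonic ones, and the difference of -0.25 ± 0.09 (SE; log2 scale, adjusted p = 0.01) was not called by edgeR, with or without E14 replicate 1, nor after median-of-ratios scaling (adjusted p up to 0.21). No step between neighbouring ages was called for *Rara*.

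*Rarb* (Gene ID 218772, chr14:16430839-16819156, minus strand), whose promoter carries the direct repeat printed earlier, had its highest mean at P1. Its libraries held 13.9, 13.7 and 18.2 cpm at E14 and 19.2, 21.4 and 18.7 cpm at E17. The P1 libraries, at 26.5, 21.6, 23.6 and 26.0 cpm, lay above every E14, E17 and P6 library. Values of 17.5, 18.1 and 21.0 cpm at P6 were followed by 16.7, 13.6, 12.7 and 13.1 cpm at P15 and 17.7, 16.6, 16.5 and 17.7 cpm at P28. At P60 the lowest, median and highest were 14.2, 19.4 and 22.2 cpm, overlapping both P28 and P1. *Rarb* fell by 0.36 ± 0.13 (SE; log2 scale) from P1 to P6 (adjusted p = 0.035) and again at P15 by 0.41 ± 0.13 (adjusted p = 0.019). The first call was lost in 8 of 37 alternatives (adjusted p up to 0.13). These were median-of-ratios scaling, the replicate block, edgeR with or without E14 replicate 1, and leaving out P1 replicate 1 or 4 or P6 replicate 1 or 2. The second call was lost in 4 (up to 0.11), namely edgeR with or without E14 replicate 1, and leaving out P6 replicate 3 or P15 replicate 3. The differences at E17 against E14 (0.36, interval 0.07 to 0.65, adjusted p = 0.12) and at P1 against E17 (0.29, interval 0.02 to 0.56, adjusted p = 0.22) were not called, and the first was called without E14 replicate 3 and without the P60 libraries (adjusted p down to 0.041). Mature and embryonic levels differed by -0.06 (95% interval -0.24 to 0.12, adjusted p = 0.54). *Rarb* shares 227 exon bases with the antisense gene *Gm48162*, not analysed here, and 1793 with *Top2b* on the opposite strand, a gene that averaged 396 cpm in embryonic and 297.2 cpm in mature retina and peaked at P6 (474 ± 18.4 cpm, n = 3). Whether reads were counted by strand is not given in the sources used here, so reads of the shared bases may belong to either gene.

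*Rarg* (Gene ID 19411, chr15:102234938-102257517, minus strand), which encodes RARγ, had the lowest mean cpm of the members up to P28 and rose after P1. At P60 its mean was 6.02 cpm, against 5.41 cpm for *Rxrg*, with overlapping libraries. *Rarg* rested on 13 to 15 reads (1.37 to 1.58 cpm) at E14, 7 to 10 reads (0.706 to 1.02 cpm) at E17 and 4 to 10 reads (0.504 to 1.18 cpm) at P1. Libraries held 3.25, 1.62 and 1.38 cpm at P6, 1.87, 2.24, 2.56 and 2.47 cpm at P15 and 4.26, 3.79, 2.84 and 3.77 cpm at P28. At P60 the values were 4.98, 3.24, 7.65, 6.30, 6.73 and 7.23 cpm in replicates 1 to 6, all but replicate 2 above the P28 libraries. Every mature library was above every embryonic one, and the difference was 1.16 ± 0.14 (SE; log2 scale, adjusted p = 1.3e-08). The P6 step of 0.74 ± 0.22 (adjusted p = 0.0084) was not called without P6 replicate 1 (adjusted p = 0.13), the library at 3.25 cpm. The P60 step of 0.56 ± 0.19 lay at the threshold (adjusted p = 0.046) and was lost in 24 of 35 alternatives (adjusted p up to 0.23). At such read numbers log2(cpm + 1) understates fold changes: on recovered reads edgeR gave 1.86 for mature against embryonic retina and 1.38 for the P6 step.

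**Figure D3:**
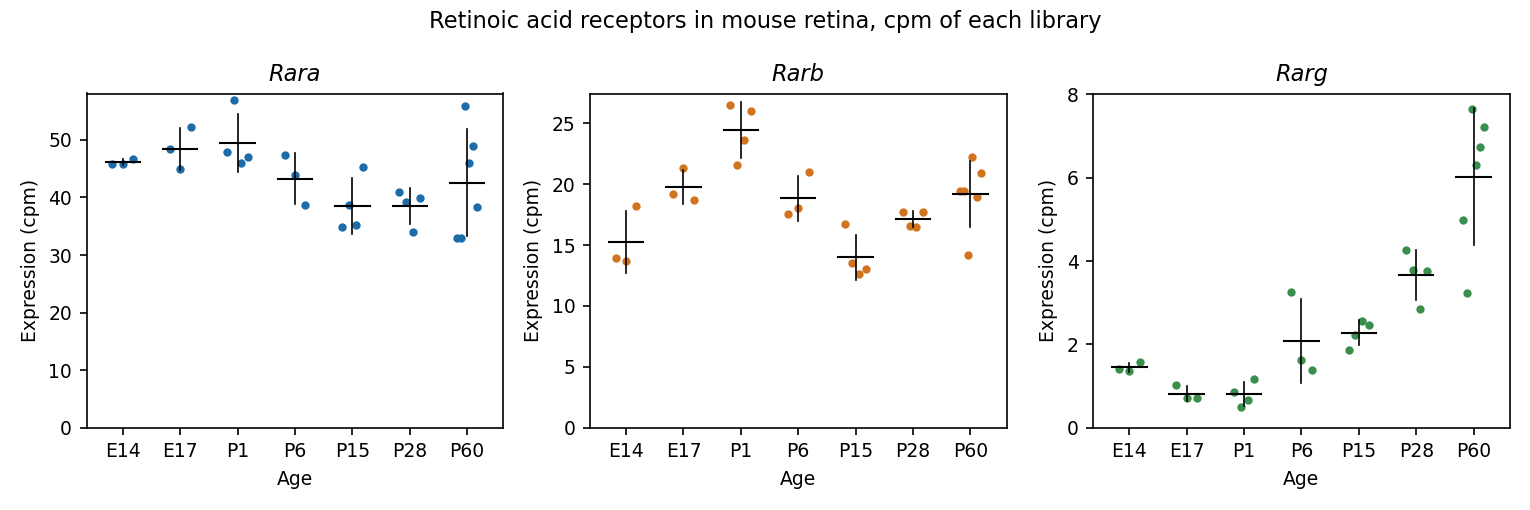
Expression of *Rara*, *Rarb* and *Rarg* in cpm (vertical axes, each from 0) at the 7 ages (horizontal axes), with a point for each library, a horizontal bar for the mean and a vertical bar for ± 1 SD. *Rarb* has its highest mean at P1 (21.6 to 26.5 cpm), *Rarg* climbs from 0.504 to 1.18 cpm at P1 to 3.24 to 7.65 cpm at P60, and *Rara* stays between 33.0 and 56.9 cpm.

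*Rara* remained the leading RAR gene per kb at every age. The 3 RAR genes summed to 13.8 ± 0.633 cpm per kb (SD, n = 3) at E14, 16.2 ± 0.842 (n = 4) at P1, 12.0 ± 1.01 (n = 4) at P15 and 14.8 ± 2.21 (n = 6) at P60. *Rara* supplied 76.6 ± 2.55% of that sum at E14 and 65.3 ± 5.14% at P60, *Rarb* 20.9 ± 2.47% and 25.2 ± 5.66%, and *Rarg* 2.46 ± 0.0775% and 9.43 ± 1.78%. With 1 cpm added to each value, the log2 ratio of *Rarg* to *Rara* was higher in mature libraries by 1.48 and that of *Rarg* to *Rarb* by 1.27 (two-sided exact permutation tests, each p = 2.6e-05, the smallest possible, adjusted p = 3.6e-05). At the low cpm of *Rarg* the added 1 cpm understates these shifts. The ratio of *Rarb* to *Rara* differed by 0.21 (exact permutation p = 0.19, adjusted p = 0.19).

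*Rora* (Gene ID 19883, chr9:68653786-69388246, plus strand), an orphan receptor gene that spans 734.5 kb, rose at each of 3 steps and declined at P60. Libraries held 104, 99.6 and 104 cpm at E14, 159, 159.6 and 169 cpm at E17, and 179.9, 190.5, 191 and 179 cpm at P1. They held 387, 322 and 331 cpm at P6, 619.9, 602, 616 and 567 cpm at P15, and 589, 587, 581 and 552 cpm at P28. From E14 to P15, every library of an age lay above every library of the age before. The called rises were 0.66 ± 0.13 (SE; log2 scale) at E17 (adjusted p = 0.00052), 0.90 ± 0.12 at P6 (adjusted p = 4.6e-07) and 0.80 ± 0.12 at P15 (adjusted p = 5.5e-06). Mature exceeded embryonic retina by 2.02 ± 0.08 (adjusted p = 8.1e-21). The antisense gene *Gm15511*, not analysed here, shares 82 exon bases with *Rora*.

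At P60, *Rora* held 554, 551, 293, 391, 379 and 430.2 cpm in replicates 1 to 6. Replicate 1 lay within the range of the P28 libraries and replicate 2 just below it, while the other 4 were at 430.2 cpm or less and replicate 3 was lower than any P6 library. The P60 mean of 433 ± 103 cpm (SD, n = 6) was lower than that of P28 by 0.45 ± 0.10 on the log2 scale (SE, adjusted p = 0.0091). This held in 35 of 36 alternatives and was lost when only P28 and P60 were fitted (adjusted p = 0.2). It also did not reach a minimum log2 change of 1, which is not among those 36. The order of the P60 replicates in *Rora* was close to that in 2 other readings chosen after the values were seen. The nuclear transcript *Malat1* held 11305, 12771, 7643, 9499, 9372 and 10866 cpm in replicates 1 to 6 and 11625 to 12849 cpm at P28. Of the reads on the 20106 features with a known gene span, genes spanning at least 100 kb took 25.6, 25.3, 24.5, 25.0, 24.6 and 25.3% in the P60 replicates and 25.0 to 25.8% at P28. The part of these readings in the result was not tested.

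The COUP-TF gene *Nr2f1* (Gene ID 13865, chr13:78188973-78199757, minus strand) fell from E14 to P15. Values were 107, 111 and 103 cpm at E14, 72.2, 68.7 and 66.8 cpm at E17, and 56.5, 57.0, 57.3 and 57.7 cpm at P1. They were 18.8, 21.8 and 17.9 cpm at P6, 13.1, 13.6, 11.6 and 15.1 cpm at P15 and 14.5, 11.1, 11.8 and 11.9 cpm at P28, and the lowest, median and highest at P60 were 10.7, 12.2 and 14.6 cpm. No libraries of neighbouring ages overlapped up to P15, and P15, P28 and P60 overlapped. The steps called were -0.62 ± 0.12 (SE; log2 scale) at E17 (adjusted p = 0.00035), -1.51 ± 0.11 at P6 (adjusted p = 1e-12) and -0.52 ± 0.11 at P15 (adjusted p = 0.00049). At P1 the difference was -0.27 (interval -0.50 to -0.04, adjusted p = 0.15). Mature was below embryonic retina by 2.67 ± 0.07 (adjusted p = 2.9e-25). The antisense gene *A830082K12Rik* shares 123 exon bases with *Nr2f1* and also ran from high to low, at 46.7 ± 1.93 cpm at E14 (n = 3), 14.4 ± 1.03 cpm at P6 (n = 3) and 8.41 ± 2.15 cpm at P60 (n = 6).

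*Nr2f2* (Gene ID 11819, chr7:70351944-70366735, minus strand), the second COUP-TF gene, was called lower from P6 on. Libraries held 129, 107 and 118 cpm at E14, 110.0, 96.4 and 112 cpm at E17, and 132, 129.6, 116 and 142 cpm at P1. They held 88.2, 84.7 and 91.8 cpm at P6, 45.2, 47.0, 50.9 and 50.4 cpm at P15 and 49.7, 44.9, 48.0 and 39.6 cpm at P28. At P60 the lowest, median and highest were 39.9, 44.2 and 55.3 cpm. E14 overlapped E17 and P1, every P1 library lay above every E17 library, P6 lay below all of these, and P15, P28 and P60 lay together below P6. The P6 step was -0.55 ± 0.11 (SE; log2 scale, adjusted p = 8.6e-05) and the P15 step -0.85 ± 0.11 (adjusted p = 1.2e-07). Mature was below embryonic retina by 1.24 ± 0.07 (adjusted p = 5.8e-17). *Nr2f2* shares 643 exon bases with the opposite-strand transcript *B130024G19Rik*, which averaged 1.98 cpm in embryonic and 3.02 cpm in mature retina.

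Per kb of annotated exon, the lead in the COUP-TF pair changed hands between E17 and P1. This rests on the division by exon length (*Nr2f1* 5.093 kb, *Nr2f2* 8.625 kb). In cpm, *Nr2f2* had the higher mean at every age, with 118 against 107 cpm at E14. Together the genes held 34.7 ± 1.05 cpm per kb (SD, n = 3) at E14, 26.3 ± 1.26 (n = 4) at P1, 14.1 ± 0.134 (n = 3) at P6 and 7.86 ± 0.793 (n = 6) at P60. *Nr2f1* held 60.5 ± 2.71% of that sum at E14, 52.5 ± 2.24% at E17, 42.8 ± 2.03% at P1 and 27.3 ± 2.85% at P6. It stayed near there later, with 31.4 ± 2.36% at P28 and 31.2 ± 4.16% at P60. The log2 ratio of *Nr2f2* to *Nr2f1* was higher in mature than in embryonic libraries by 1.44 (two-sided exact permutation test, p = 2.6e-05, the smallest possible, adjusted p = 3.6e-05).

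*Nr2e1* (Gene ID 21907, chr10:42561963-42583632, minus strand), the TLX gene, showed the largest difference of the 10 members. The values were 94.7, 88.4 and 92.0 cpm at E14, 75.5, 78.4 and 75.1 cpm at E17, and 71.9, 75.9, 66.3 and 57.7 cpm at P1. At P6 they were 10.2, 11.5 and 9.65 cpm, below every P1 library, and at P15 they were 6.29, 4.74, 4.14 and 4.54 cpm. P28 held 7.19, 4.49, 4.60 and 6.54 cpm, and the lowest, median and highest at P60 were 4.93, 6.24 and 7.78 cpm, so that the 3 mature ages overlapped at 32 to 62 reads a library. The P6 step was -2.59 ± 0.15 (SE; log2 scale, adjusted p = 2.8e-15), the P15 step -0.96 ± 0.15 (adjusted p = 7.5e-06), and mature was below embryonic retina by 3.69 ± 0.10 (adjusted p = 1.5e-25). The progenitor marker *Mki67*, a proliferation gene, went from 2259 ± 176 cpm at P1 (n = 4) to 64.9 ± 11.7 cpm at P6 (n = 3), and *Sox2*, a progenitor transcription factor gene that glia also express, was at 129 ± 10.3 cpm and 28.4 ± 2.01 cpm at the same ages. The part of a change in cell makeup in the fall of *Nr2e1* was not tested.

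**Figure D4:**
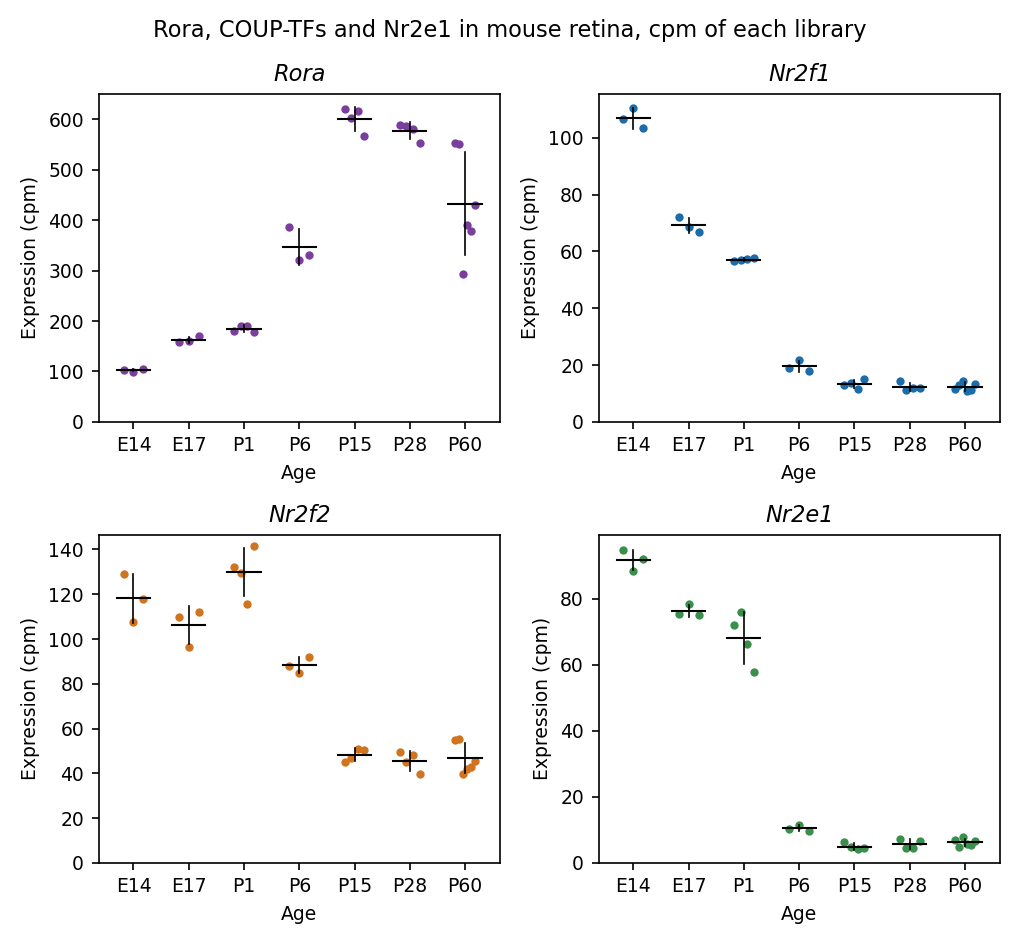
Expression of *Rora*, *Nr2f1*, *Nr2f2* and *Nr2e1* in cpm (vertical axes, each from 0) at the 7 ages (horizontal axes), with a point for each library, a horizontal bar for the mean and a vertical bar for ± 1 SD. *Rora* rises from 102 cpm on average at E14 to 601 cpm at P15 and spreads from 293 to 554 cpm at P60, while *Nr2e1* drops from 67.9 to 10.4 cpm on average between P1 and P6.

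Per kb of exon, the order of the 10 genes was rearranged between P1 and P6. This order rests on the division by exon length (*Rora* 13.07 kb, *Nr2e1* 3.711 kb). In cpm, *Nr2f2* had the highest mean at E14 (118 cpm). From E17 on it was *Rora*, with 163 cpm at E17 against 106 cpm for *Nr2f2*. Per kb, *Nr2e1* led at E14 (24.7 cpm per kb) and E17 (20.6), followed by *Nr2f1* (21.0 and 13.6), with no overlap between the libraries of the leading pair. At P1 *Nr2e1* (18.3), *Nr2f2* (15.1) and *Rora* (14.2) followed each other with overlapping libraries. From P6 *Rora* led without overlap, at 26.5 cpm per kb at P6, 46.0 at P15, 44.2 at P28 and 33.1 at P60. The next gene at P6 was *Nr2f2* (10.2), which overlapped *Rara* (9.92), and from P15 the next gene was *Rara* (8.82 at P15 and P28, 9.74 at P60). *Nr2e1* was ninth from P6, and *Rarg* was last at all 7 ages, from 0.189 cpm per kb at P1 to 1.41 at P60, where its libraries overlapped those of *Nr2e1* (1.69).

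**Figure D5:**
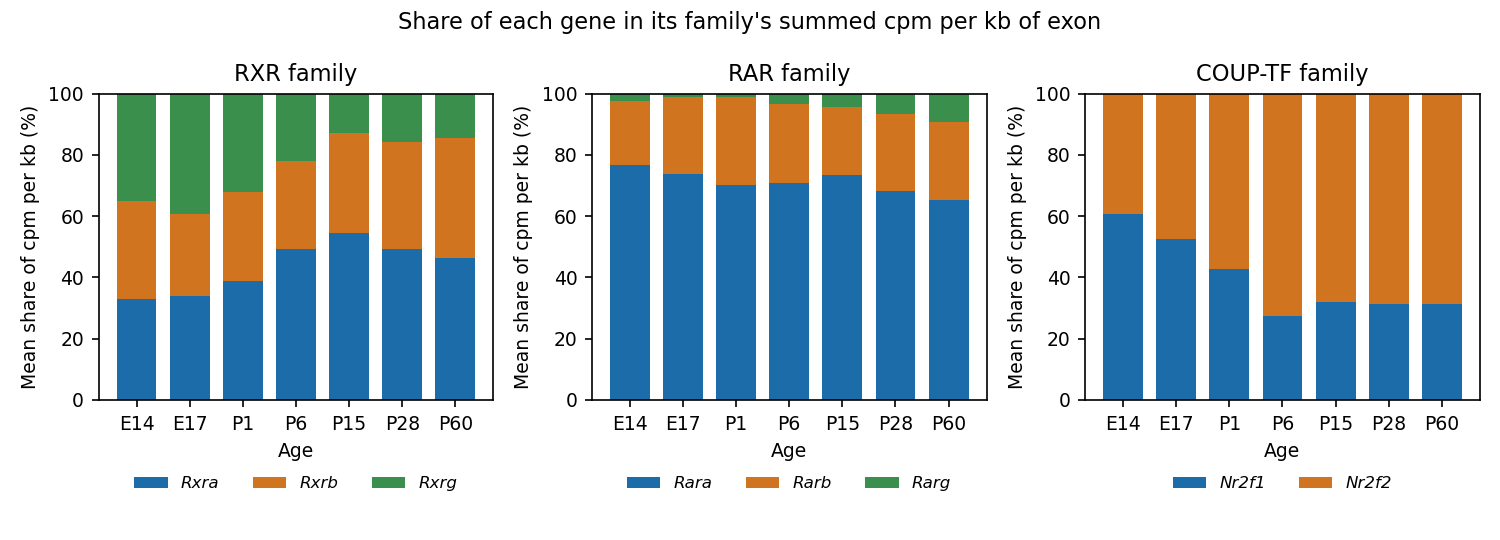
Mean share of each gene in the summed cpm per kb of its family (vertical axes, percent, from 0 to 100) at the 7 ages (horizontal axes), as stacked bars for RXR, RAR and COUP-TF genes. *Rxrg* shrinks from 35.0% to 14.7% between E14 and P60, *Rarg* widens from 2.46% to 9.43%, and *Nr2f1* gives way to *Nr2f2*, from 60.5% to 31.2%.

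Over the 27 libraries, as a description with no p, the members were compared with each other and with all features on the log2(cpm + 1) scale. *Nr2f1* and *Nr2e1* correlated at r = 0.984, *Nr2f2* and *Nr2e1* at 0.911, and *Rxrg* and *Nr2e1* at 0.889, while *Rora* ran opposite to *Nr2f1* (r = -0.958). *Rxra* and *Rxrb* hardly varied together (r = 0.085). The features most like *Nr2e1* were *Msh6* (r = 0.996), *Cep192* (0.995) and *Mcm4* (0.994), and those most like *Nr2f1* were *Kpnb1*, *Cdc25a* and *Zic1* (each 0.991). *Nr2f2* was nearest to *Pogk* (0.983), *Smad5* (0.981) and *Mybl1* (0.980). *Rora* was nearest to *Pura* (0.989), *Dgki* (0.985) and *4930563I02Rik* (0.984), and *Rarg* to *Pi4ka* (0.959), *Gmppb* (0.955) and *Cops7a* (0.945). *Rxrg* was nearest to *2810410L24Rik* and *Bahcc1* (each 0.938) and *H19* (0.933). The best matches were lower for *Rxrb* (*Gtf3c2*, 0.900), *Rara* (*Setd1a*, 0.880), *Rxra* (*Brf1*, 0.810) and *Rarb* (*B3galt6*, 0.783). All these points share the same libraries and ages.

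The genes that supply, bind and degrade retinoic acid were compared in the same way. Of 11 such genes 10 were tested, and in mature against embryonic retina 2 were higher and 7 were lower, where 35.0% of all features were higher and 40.4% lower. *Rdh10* was not called, and the median was -1.96 (all features -0.06). *Aldh1a3*, which makes retinoic acid, stood at 55.3 ± 5.49 cpm at E14 (n = 3), 14.9 ± 1.01 cpm at P1 (n = 4) and 0.119 ± 0.151 cpm at P60 (n = 6), and the difference was -5.55 ± 0.11 (SE; log2 scale, adjusted p = 8.7e-29). *Aldh1a1* (-1.67), a further synthesis gene, the binding proteins *Crabp2* (-5.02) and *Crabp1* (-3.28), the degrading enzymes *Cyp26a1* (-3.94) and *Cyp26c1* (-2.24) and the retinol transporter *Stra6* (-0.98) were also lower. *Dhrs3*, which reduces retinaldehyde, rose from 1.72 ± 0.432 cpm at E14 (n = 3) to 79.4 ± 10.2 cpm at P60 (n = 6), a mature minus embryonic difference of 4.44 ± 0.09 (adjusted p = 9.3e-29). *Cyp26b1* was higher by 0.49 ± 0.17 (adjusted p = 0.01) at no more than 23 reads a library. *Aldh1a2* did not pass the filter on low values, with at most 7 reads.

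Among 11 receptors that can pair with RXRs, 9 were tested, of which 6 were higher (35.0% of all features), 1 was lower (40.4%) and 2 were not called, with a median of 0.64 (all features -0.06). *Ppara*, which controls fatty acid oxidation, went from 0.174 ± 0.123 cpm at E14 (n = 3) to 18.2 ± 1.99 cpm at P6 (n = 3) and 27.6 ± 3.15 cpm at P60 (n = 6), and mature exceeded embryonic retina by 4.60 ± 0.09 (SE; log2 scale, adjusted p = 1.9e-28). *Nr4a1* (2.07), *Ppard* (1.20), the oxysterol receptor gene *Nr1h3* (0.64) and the thyroid hormone receptor gene *Thra* (0.44) were higher, and *Nr4a2* was lower (-0.98). The bile acid receptor gene *Nr1h4* had no read in any embryonic library and averaged 2.53 ± 0.933 cpm in mature retina (n = 14), at least 8.36-fold above 3 reads per embryonic library. *Thrb*, whose isoforms are not separated in these values, differed by 0.06 ± 0.07 between mature and embryonic retina (adjusted p = 0.48), but moved at 4 steps between neighbouring ages. It was higher at E17 (0.38, adjusted p = 0.03), lower at P1 (-1.17, adjusted p = 1.9e-09) and higher again at P6 (0.72, adjusted p = 2.3e-06) and P15 (0.39, adjusted p = 0.0056). *Nr1h2* differed by 0.17 ± 0.09 between mature and embryonic retina (adjusted p = 0.081). *Vdr* and *Pparg* did not pass the filter.

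Of 5 related orphan receptors, 1 was higher (35.0% of all features), 3 were lower (40.4%) and *Nr2c1* was not called, with a median of -0.17 (all features -0.06). *Rorb*, the paralog of *Rora*, was lower in mature retina, at 2568 ± 35.7 cpm at E14 (n = 3), 3429 ± 223 cpm at P1 (n = 4) and 851 ± 179 cpm at P60 (n = 6), a mature minus embryonic difference of -1.29 ± 0.07 (SE; log2 scale, adjusted p = 2.4e-17). *Nr2e3*, the rod receptor related to *Nr2e1*, went from 0.825 ± 0.152 cpm at E14 (n = 3) to 666 ± 14.8 cpm at P6 (n = 3) and 241 ± 25.8 cpm at P60 (n = 6), a difference of 6.34 ± 0.08 (adjusted p = 2.2e-33). *Nr2f6* (-0.64) and *Nr2c2* (-0.17) were lower. Whether *Rorb* and *Nr2e3* differed in their course from *Rora* and *Nr2e1* was not tested.

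Of 12 receptor coregulators, 2 were higher (35.0% of all features), 7 were lower (40.4%) and *Ncor1*, *Ep300* and *Nrip1* were not called, with a median of -0.20 (all features -0.06). The coactivator genes *Ncoa1* (0.86 ± 0.04, SE, log2 scale, adjusted p = 7.4e-18) and *Ncoa2* (0.50 ± 0.04, adjusted p = 5.9e-12) were higher. *Tbl1x*, a corepressor subunit, fell by 1.14 ± 0.04 (adjusted p = 1.5e-21), and *Med1* (-0.70), *Gps2* (-0.66), *Crebbp* (-0.60), *Ncoa3* (-0.43), *Hdac3* (-0.21) and *Tbl1xr1* (-0.20) were lower by smaller amounts.

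All 7 opsin and cone genes measured as possible targets were called higher in mature retina (35.0% of all features), with a median of 4.32. For *Cngb3*, a cone channel subunit gene, the difference was 0.32 ± 0.07 (SE; log2 scale, adjusted p = 0.0002), and its mature libraries (33.7 to 43.6 cpm) lay above those of E14 (14.7 ± 2.01 cpm, n = 3) and below those of E17 (57.8 ± 1.69 cpm, n = 3). *Opn1sw*, the short-wavelength opsin gene, held 2.15 ± 0.391 cpm at E14 (n = 3), 38.5 ± 7.93 cpm at P1 (n = 4) and 139 ± 17.8 cpm at P60 (n = 6), a difference of 4.32 ± 0.09 (SE; log2 scale, adjusted p = 5.7e-28). *Opn1mw*, the medium-wavelength opsin gene, had at most 2 reads in any embryonic library and averaged 41.4 ± 7.27 cpm in mature retina (n = 14), at least 137-fold above 3 reads per library. It stood at 0.686 ± 0.517 cpm at P6 (n = 3) and 38.5 ± 3.57 cpm at P15 (n = 4). *Rora* had its highest and *Rxrg* its lowest mean at P15, in both cases with libraries that overlapped those of P28. The lowest means of *Rxrb*, *Rarb* and *Nr2e1* were also at P15. The timing is given side by side, and a link between these genes was not tested.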

How the data were processed

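The authors made single-end RNA-seq libraries from total RNA of whole retina with a SMARTer total RNA kit, aligned reads to GRCm38 (mm10) with STAR and deposited CPM values (reads scaled to the library total, written cpm here) in 1 table of 27 libraries. The annotation and the use of strand are not given in the sources used here. Low values were whole multiples of 1 read in every library (100% of values within 0.01), which gave reads and depth.

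Libraries were grouped by age as labelled. Features reaching 1 CPM in 3 or more libraries (31760) were fitted as log2(CPM + 1) with limma 3.58.1 (R 4.3.3, mean-variance trend, 7 ages sharing 1 estimate of spread for each feature). All tests were two-sided, p-values were adjusted by Benjamini-Hochberg over those features, and the threshold was 0.05. Ratios of paralogs, as differences between their log2(CPM + 1) values, were compared by exact permutation (Python 3.11.15, numpy 2.4.6). Exon lengths came from GENCODE annotation of GRCm38 and promoters from RefSeq.

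Alternatives were a pseudocount of 0.1, no filter, the sum of entries of a symbol, a mean CPM of at least 10, a minimum log2 change of 1, median-of-ratios scaling, edgeR 4.0.16 on recovered reads, a replicate block, only the ages compared and leaving out each library. Named genes are the members, listed pathway genes, markers, overlapping genes and the 3 features most correlated with each member. Members and lists were chosen with earlier results of these data known. Some listed genes are not reported here and were left out of the list counts and sums. Tests were tried on simulated reads.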

Additional observations from a re-analysis of the deposited data

How the results depend on the processing

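In mature against embryonic retina the direction of 9 members held under every alternative, and *Rarb*, not called, ran from -0.15 to 0.04. Counts of members called moved by over 1.5 times as follows. With a minimum log2 change of 1 the calls were 0 at E17, 2 at P6, 1 at P15 and 0 at P60, and the list counts were 4 for RXR partners, 2 for orphan receptors and 1 for coregulators. A mean CPM of at least 10 also gave 4 for RXR partners. At P1 against E17, fitting only the ages compared gave 3 calls (*Nr2f1*, *Nr2f2*, *Rora*), as did leaving out the P60 libraries, an alternative chosen after seeing the data. At P60 against P28, only the ages compared gave 0 calls. Leaving out 1 library gave 4 to 7 calls at P6, 5 to 7 at P15 and 1 to 3 at P60, with 1 call without P28 replicate 1, 2 or 4 or P60 replicate 3, 4 or 5. The ratio of *Rxrb* to *Rxra* ran from -0.31 to -0.18 without 1 library, and was -0.41 without P60 (adjusted p = 0.0054, stronger). Replicate numbers did not pair the libraries: 69 pairs with the same number deviated with r from -0.129 to 0.167, and 2 of 21 libraries were closest to their own number. The replicate block gave 1 call at P60 against P28. EdgeR without E14 replicate 1, whose read step an automatic test could not judge, was also added after seeing the data. Precision is limited for *Rarg* (4 to 61 reads), *Rxrg* from P15 (17 to 77) and *Nr2e1* from P15 (32 to 62), and by the spread of the P60 libraries.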
